A study of Homo sapiens with 2 samples.

Results

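This account concerns 10 human genes for nuclear transport receptors, the importins and exportins TNPO1, TNPO3, KPNB1, KPNA2, IPO5, IPO7, IPO8, IPO9, XPO1 and CSE1L. They were taken as the peaks listed under these gene symbols, matched through the Ensembl gene identifier of each peak, and they are 10 of the 20048 genes that held a peak in the deposited lists. The set was chosen by gene name, and TNPO1 in it was selected on its number of 3′ UTR peaks repeated in these same 2 libraries, so that number is a description and not a finding. The study sought RNA elements that act in cis and are associated with CCR4-NOT, the main complex that shortens poly(A) tails in human cells. Its single group, labelled TRACER, held 2 libraries of cytoplasmic RNA from HEK293T cells, a human embryonic kidney line, given 3 ug/mL doxycycline for 24 hours and sequenced with a microRNA library protocol. The labels name neither the meaning of TRACER nor an expressed protein, and no untreated, input or other control library was analysed here. No test between conditions was therefore possible, and every value is a description of these 2 libraries, whose spread may be technical since separate cultures are not stated.

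Transport receptors of the importin-β family carry proteins and RNAs through nuclear pores, and the small GTPase Ran decides on which side they bind or release cargo. Importins bind cargo in the cytoplasm and let go when they meet Ran-GTP in the nucleus, whereas exportins bind cargo together with Ran-GTP. Members of the family are built from helical HEAT repeats, and importin-α proteins such as KPNA2 serve as adaptors between cargo and importin-β. CCR4-NOT is brought to mRNAs by RNA-binding proteins such as the Pumilio proteins and by the microRNA machinery, which recognises sites in 3′ UTRs that pair with a microRNA's seed.

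The sequences around the best covered sites show what the peaks lay on. The 2 windows of 3′ UTR below hold a match to a microRNA seed under the gene's strongest 3′ UTR peak, the third holds the Pumilio element of IPO7, and capitals mark the match. Each window has 30 nt of mRNA.
TNPO1, chr5:72914283-72914312, plus strand: uauauauuGUACUGUaguaauuuuguauuu
KPNA2, chr17:68046678-68046707, plus strand: aaaugugguuuguuacuguaGCACUUUuua
IPO7, chr11:9447031-9447060, plus strand: aaugaaguaguUGUAUAUAugcaacauugu
The next 6 windows lie in coding sequence, are cut to whole codons and have the acidic codons (those that begin with GA and encode aspartate or glutamate) in capitals. They are shown because the strongest or near strongest coding peaks of several of these genes lay on such stretches.
TNPO1, chr5:72883142-72883171, plus strand: gcucagcagcauGAUGAAGAUggaauuGAA
KPNB1, chr17:47668186-47668215, plus strand: GACGAAaauGAUGAUGACGAUGACuggaac
IPO5, chr13:97997557-97997586, plus strand: GAUuugGAAGAAGAUGAGGACugggcaaau
IPO7, chr11:9440529-9440558, plus strand: gguGAAGAUggaGAUGAUGAAGAUuggGAA
IPO8, chr12:30634183-30634212, minus strand: GAUGAGGAGGAGGAAGAUGAUGACuggGAU
IPO9, chr1:201875157-201875186, plus strand: GAUuacuacGAGGAUGAUGAGGAAGAUGAC
Positions are on GRCh38, the build the labels name, and the sequences come from GENCODE 29 transcripts.

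A peak is a stretch of transcript in which the authors' caller found more reads than it expected, and the reads in each peak are the authors' own whole numbers. The lists held 96682 peaks with 1585446 reads in replicate 1 and 105125 peaks with 1663907 reads in replicate 2, with a median of 6 reads per peak and at least 3 in each. Reads outside peaks, and so the full depth of the libraries, are unknown. All 6 markers of HEK293T cells held peaks in both libraries, with 808 and 880 reads in sum. VIM held 494 and 517 of these, and the fewest were in PAX2 (10 and 16) and LHX1 (3 and 4). Of 10 markers of other tissues, 8 held none, and the muscle genes ACTA1 and CKM together held 76 reads in replicate 1 and 96 in replicate 2. The part of either muscle gene in the values below was not tested.

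The 10 genes held 233 peaks with 2534 reads in replicate 1 and 230 peaks with 2860 reads in replicate 2, which was 0.16% and 0.172% of all peak reads. Each peak was called found in both libraries where it shared at least 1 nt on the same strand with a peak of the other library under the same gene. This held for 151 of the 233 peaks of replicate 1 (64.8%, exact binomial 95% interval 58.3 to 70.9, counting error only) and for 149 of the 230 peaks of replicate 2 (64.8%, 58.2 to 70.9). Over the peaks of all protein-coding genes it held for 59% in replicate 1 and 54.1% in replicate 2. The transport genes were better covered than most, with a median of 210 reads per gene. The median was 58 over the 8765 protein-coding genes with at least 10 reads in each library. The part of coverage in the repeat rate of the transport genes was not tested.

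Levels were compared per kilobase of mRNA, counting the reads of exonic peaks only. KPNA2, an importin-α, stood highest with 153 reads per kb in replicate 1 and 227 in replicate 2, and KPNB1, importin-β1, came next with 79.8 and 91.7. The main export receptor XPO1 had 71.4 and 76.9 reads per kb, IPO7 had 64.9 and 73.2, and CSE1L, which returns importin-α to the cytoplasm, had 74.3 and 50.4. The values of XPO1 and IPO7 overlapped, as did those of IPO7 and CSE1L, so that the order among these 3 genes was not set by the 2 libraries. IPO5 followed at 30.3 and 32.3 reads per kb and TNPO1 at 17.1 and 18.2. IPO8 (13.1 and 16.3) and TNPO3 (15.1 and 14.0) overlapped each other, and IPO9 was lowest at 8.13 and 11.6. Over the 8765 protein-coding genes with at least 10 peak reads in each library, the median was 16.4 reads per kb. A mean above it was found for 7 of the 10 genes. This order depends on peaks whose summit sequence, 20 nt long, also occurs in a transcript of another gene. Without those peaks KPNA2 had 58.6 reads per kb in replicate 1 and 73.3 in replicate 2, and KPNB1 had 72.3 and 76.1, so that KPNA2 no longer stood highest. IPO7 then had 35.7 and 35.4, and TNPO1 had 11.7 and 13.0. The TNPO1 mean was then 12.3, below TNPO3 and IPO8, both at 14.5, and below 16.4, the median with all peaks counted. Over the 10 genes the log2 reads of the 2 libraries had a Pearson correlation of 0.96, and the ratio of replicate 1 to replicate 2 ran between 0.674 for KPNA2 and 1.47 for CSE1L.

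**Figure D1:**
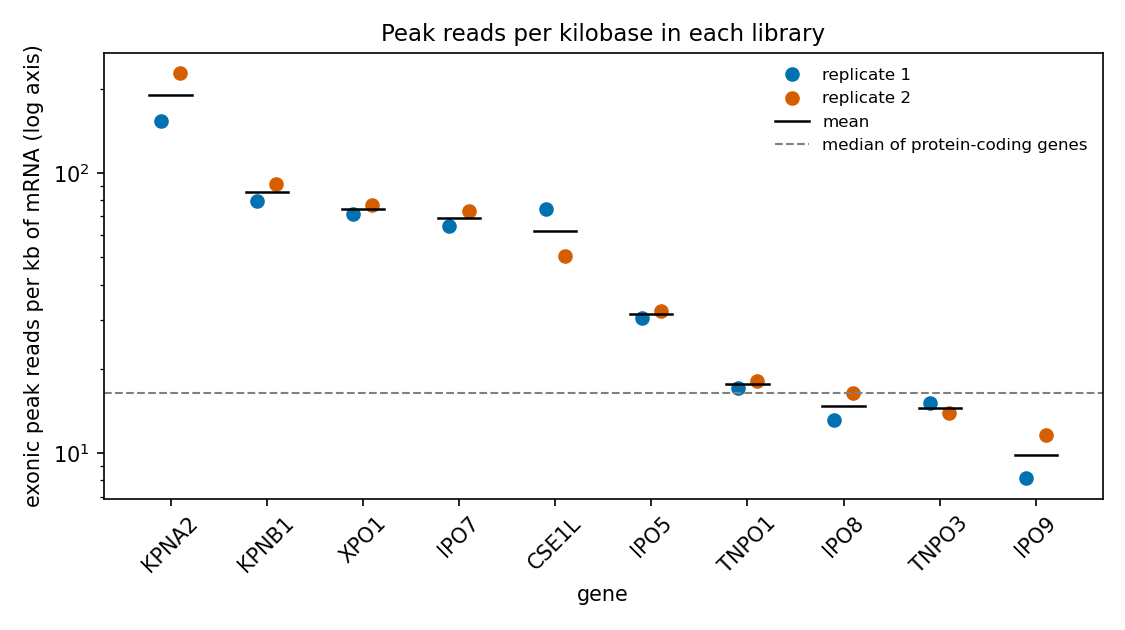
Reads in exonic peaks per kilobase of mRNA (log axis) for each transport gene, with a point per library and a bar at their mean. The dashed line is the median over protein-coding genes with at least 10 reads in each library, 16.4 reads per kb. With all peaks counted KPNA2 lies highest and IPO9 lowest, and IPO8, TNPO3 and IPO9 have means below the line.

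Most of the reads lay in coding sequence. The median over the 10 genes was 71.9% of peak reads in the coding sequence (CDS), against 53.8% over protein-coding genes with at least 10 reads in each library. For the 3′ UTR the median was 15.9% ± 4.21 (SD of the medians of the 2 libraries, 19.3% and 13.4%), against 22.1% over protein-coding genes. All 10 genes had a CDS peak found in both libraries, where 56.4% of protein-coding genes did. A 3′ UTR peak found in both was present in 8 of the 10, where 43.3% of protein-coding genes had one, and IPO9 and CSE1L had none. A 5′ UTR peak found in both was present in KPNB1, KPNA2, IPO8 and XPO1, where 21.5% of protein-coding genes had one. In bases, 2.95% of the genes' 3′ UTR and 10.4% of their CDS lay under peaks of both libraries, against 1.46% and 3.34% over protein-coding genes. The shares of genes with a repeated peak are over all 13039 protein-coding genes with a peak, many of them with few reads. The part of the transport genes' higher coverage in these comparisons was not tested.

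**Figure D2:**
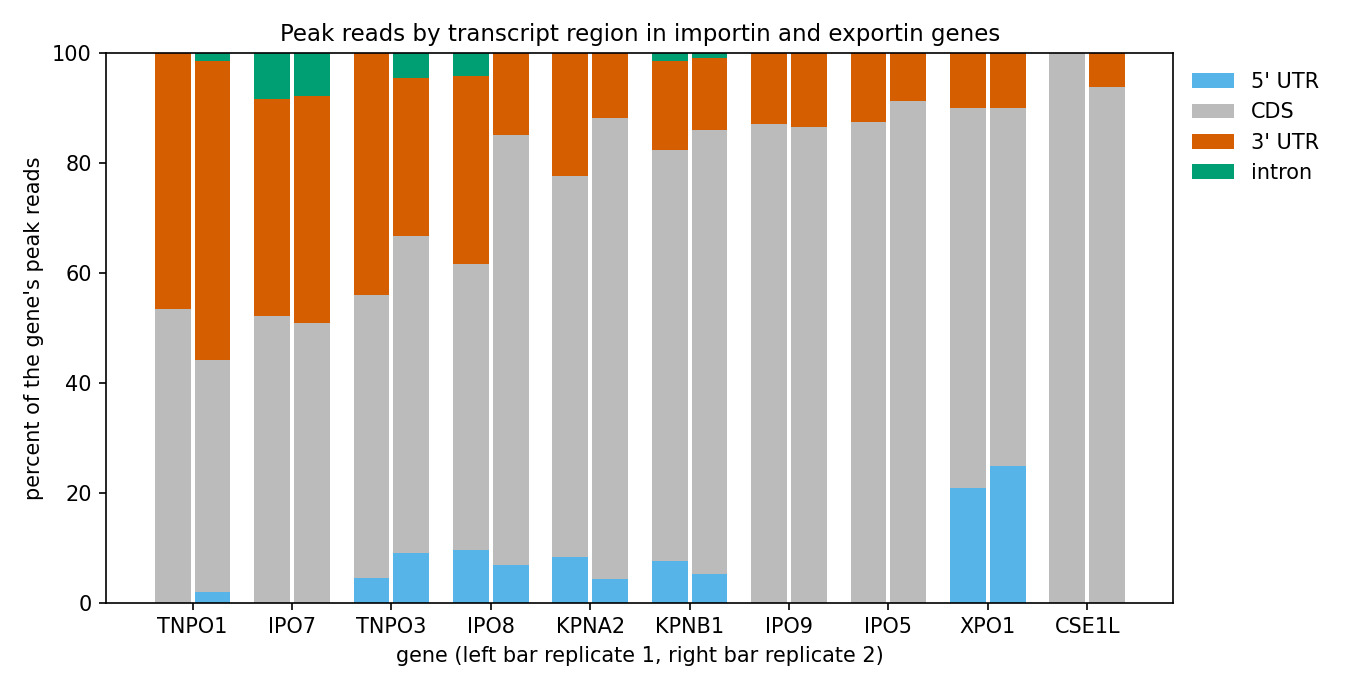
Percent of each gene's peak reads in the 5′ UTR, CDS, 3′ UTR and introns, with replicate 1 as the left bar and replicate 2 as the right bar of each pair; genes are ordered by their mean 3′ UTR share. TNPO1 has the tallest 3′ UTR parts in both libraries, followed by TNPO3 in replicate 1 and IPO7 in replicate 2, XPO1 has the tallest 5′ UTR part, and the reads of CSE1L are nearly all in the CDS.

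TNPO1, transportin-1, which imports many RNA-binding proteins, had the largest 3′ UTR share of the 10 genes with all peaks counted. It held 32 peaks with 191 reads in replicate 1 and 34 peaks with 206 reads in replicate 2. The 3′ UTR took 89 of these reads (46.6%) in replicate 1 and 112 (54.4%) in replicate 2, and the CDS took 102 and 87. Of 17 and 18 peaks in the 3′ UTR, 12 in each library were found in both, a number reached by 10 of 13039 protein-coding genes (0.0767%). Just around this value, 8 genes had 11 such peaks, 5 genes including TNPO1 had 12, and 2 genes had 13. Most of the 12 sites were thin: the reads per site ran between 3 and 14 in replicate 1 and between 4 and 12 in replicate 2. A single site had p-values at or under 1e-05 in both libraries. When both peaks had to share 50% of their length, 7 were counted.

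These sites lay between 372 and 5625 nt after the stop codon of a 3′ UTR of 8060 nt, 10 of them (83.3%) nearer to the stop codon than to the end. Over protein-coding genes, 57.5% of such regions lay nearer to the stop codon. The TNPO1 sites 2097 and 790 nt after the stop tied as second best covered in summed reads. The site at 2097 nt had 11 reads in replicate 1 and 6 in replicate 2, and the site at 790 nt had 6 and 11. The best covered and farthest site, chr5:72914270-72914349, had 14 reads in replicate 1 and 12 in replicate 2.

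That site holds GUACUGU, the match to the seed of miR-101, which is printed above. A second match, 1076 nt after the stop codon, was not under a peak of either library, nor was the only Pumilio element of this 3′ UTR, 3454 nt after the stop. Of the 5 miR-101 matches in the 3′ UTRs of the 10 genes, the 1 in TNPO1 lay under peaks of both libraries, where 6.8% of the 1720 matches in protein-coding genes did. The mature microRNA, from RefSeq (GRCh38.p14, chr9:4850345-4850365, plus strand), is given with its seed, bases 2 to 8, in capitals, and its gene MIR101-2 held 23 peak reads in replicate 1 and 16 in replicate 2.
hsa-miR-101-3p: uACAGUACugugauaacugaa
A match is a description of the sequence, and whether the microRNA bound there was not measured.

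The numbers of repeated 3′ UTR peaks can be set beside the lengths of the 3′ UTRs. Counted as regions merged over both libraries, TNPO1 had 1.49 per kb of 3′ UTR. XPO1 had 4.12, KPNA2 4.07, TNPO3 2.43, IPO7 2.05 and KPNB1 1.29, so per length TNPO1 was not the highest. IPO9, an importin of histones and ribosomal proteins, has an annotated 3′ UTR of 8240 nt and held 4 peaks there in each library and none found in both. Its 3′ UTR had 12 reads (12.9%) in replicate 1 and 18 (13.5%) in replicate 2, with 3 to 7 reads per peak, while its CDS had 81 and 115. Over all 271 protein-coding genes with a 3′ UTR of at least 8000 nt, the median was 1 peak found in both, 134 had 0 and 3 had 12 or more. TNPO1 had 191 and 206 peak reads in all and IPO9 had 93 and 133, the median of these 271 genes was 24 and 29, and the part of depth was not tested. How much of each annotated 3′ UTR the cells used was not measured.

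**Figure D3:**
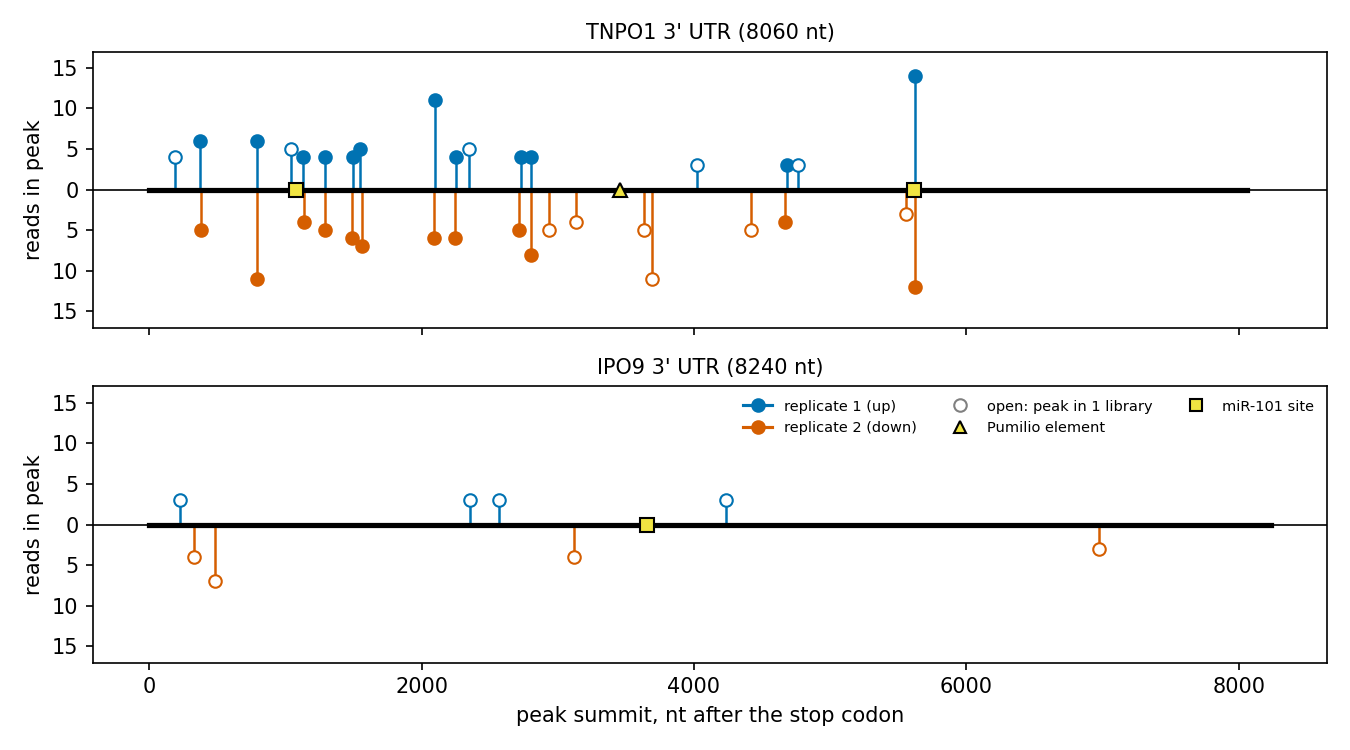
Peaks in the 3′ UTRs of TNPO1 (top) and IPO9 (bottom) by distance of the summit from the stop codon in nt, with reads per peak upward for replicate 1 and downward for replicate 2; filled circles are peaks found in both libraries, open circles peaks of a single library, triangles Pumilio elements and squares miR-101 matches. TNPO1 has 12 filled sites per library, the farthest at 5625 nt beside a miR-101 match, and IPO9 has no filled site.

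In its CDS, TNPO1 had 8 regions found in both libraries. The strongest, chr5:72883120-72883233, was also the gene's best covered region, with 24 reads in replicate 1 and 23 in replicate 2. It overlapped the most acidic stretch of the coding sequence, codons 362 to 371, of which 9 of 10 are acidic. The 20 nt at the summit of this peak also occur in the pseudogenes TNPO1P2 and TNPO1P3, and peaks whose summit is shared in this way held 31.4% of the gene's reads in replicate 1 and 28.2% in replicate 2. None of those lay in the 3′ UTR, so the 12 sites there stayed 12 without them, and the 3′ UTR share was then 67.9% and 75.7%.

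TNPO3, transportin-3, which imports serine- and arginine-rich splicing factors, was thinly covered with 68 reads in replicate 1 and 66 in replicate 2. Its 3′ UTR took 30 reads (44.1%) in replicate 1 and 19 (28.8%) in replicate 2, and 3 peaks there were found in both, at 195, 909 and 971 nt after the stop codon. Each had 3 to 5 reads per library. Its best covered region was in the CDS, with 4 reads in replicate 1 and 9 in replicate 2, so single sites of this gene rest on very few reads.

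KPNB1, the importin-β1 that carries importin-α and many cargoes, had 497 and 568 reads, with 371 and 458 of them in the CDS. It had 18 CDS regions found in both libraries, which covered 20.9% of its coding bases, the largest share among the 10 genes. Its best covered region was nevertheless in the 3′ UTR, chr17:47682466-47682531, 101 nt after the stop codon, with 46 reads in replicate 1 and 38 in replicate 2. The other 3 regions of its 3′ UTR, 381, 553 and 1070 nt after the stop, had 6 to 13 reads in replicate 1 and 9 to 15 in replicate 2. The 30 nt around the summit at 553 nt hold the GU repeat UGUGUGU. Its 5′ UTR region, chr17:47650030-47650114, lay 184 nt before the start codon with 33 and 30 reads.

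IPO5, which imports ribosomal proteins and histones, had 182 and 194 reads, of which 87.4% and 91.2% lay in the CDS. Its 3′ UTR had 2 sites found in both. The site 93 nt after the stop codon had 11 reads in replicate 1 and 10 in replicate 2, and the site at 415 nt had 12 and 3. Of its 10 CDS regions, the best covered, chr13:98010106-98010217, had 23 and 22 reads, and another, over the window printed above, had 22 and 20.

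IPO7 and IPO8 are close relatives, and both are known as import receptors of SMAD signalling factors. IPO7 had 439 and 491 reads, and its 3′ UTR took 39.4% of them in replicate 1 and 41.3% in replicate 2. Its mean share of 40.4% was the second after TNPO1, although TNPO3 had 44.1% in replicate 1. Its 7 peaks found in both merged into 6 regions, and all 6 had p-values at or under 1e-05 in each library, where 1 of the 12 TNPO1 regions did. The best covered, chr11:9445927-9446009, lay 791 nt after the stop codon with 56 reads in replicate 1 and 63 in replicate 2. The other 5 had 14 to 27 reads in replicate 1 and 9 to 35 in replicate 2. Peaks whose summit sequence also occurs in another gene weigh on this share: without them the 3′ UTR took 59.7% of the reads in replicate 1 and 69.3% in replicate 2, and 6 of its 3′ UTR peaks were found in both.

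IPO7 was also the only one of the 10 genes with a Pumilio element under peaks of both libraries. The element UGUAUAUA, chr11:9447042-9447049, starts 1848 nt after the stop codon, in a region with 14 reads in replicate 1 and 10 in replicate 2 whose summit lies at 1871 nt. A second IPO7 element at 476 nt was under no peak. The 3′ UTRs of the 10 genes held 5 elements of the form UGUANAUA, and 1 lay under peaks of both libraries (20%, exact 95% interval 0.505 to 71.6), against 13% of 5945 elements in protein-coding genes. With 5 elements this share cannot be told from the background.

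Of the IPO7 reads, 37 in replicate 1 and 38 in replicate 2 were intronic, and all of them lay on SNORA23, a small nucleolar RNA gene inside an IPO7 intron. They are 8.43% and 7.74% of the gene's reads and say nothing of the IPO7 mRNA.

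IPO8 had 73 and 87 reads, with 5 regions found in both. Its 3′ UTR share was 34.2% in replicate 1, from 7 peaks with 25 reads, and 14.9% in replicate 2, from 3 peaks with 13 reads. A single 3′ UTR site, 297 nt after the stop codon, was found in both, with 3 and 7 reads. Its best covered region was in the CDS, chr12:30634166-30634234, with 13 and 18 reads.

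KPNA2, the adaptor that joins cargo with a classical nuclear localisation signal to importin-β1, had 376 reads in replicate 1 and 558 in replicate 2. Its CDS took 261 (69.4%) and 468 (83.9%) of them, and its 3′ UTR of 246 nt took 84 (22.3%) and 66 (11.8%). Without peaks whose summit is shared with another gene, the 3′ UTR took 48.6% and 36.7%. The 3′ UTR site found in both, chr17:68046669-68046744, had 70 reads in replicate 1 and 66 in replicate 2, the most of any 3′ UTR site of the 10 genes. Its summit lay 97 nt after the stop codon, beside GCACUUU, the match to the seed shared by the miR-17 family. This was the only 1 of 9 such matches in the 10 genes under peaks of both libraries, where 2.44% of 4305 matches in protein-coding genes were. Family members, all found in the RefSeq table (GRCh38.p14), are shown with their shared seed in capitals, to be read against the KPNA2 window above.
hsa-miR-93-5p: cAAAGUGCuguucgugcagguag
hsa-miR-106b-5p: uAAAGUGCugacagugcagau
hsa-miR-17-5p: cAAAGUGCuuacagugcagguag
The first comes from chr7:100093815-100093837 and the second from chr7:100094043-100094063, both on the minus strand, and the third from chr13:91350618-91350640 on the plus strand. MIR93 held 63 peak reads in replicate 1 and 44 in replicate 2, MIR106B held 26 and 22, and no peak was listed under MIR17. KPNA2 also has 2 Pumilio elements, of which the nearer, 141 nt after the stop codon, lay under the peak of replicate 1 only.

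The best covered KPNA2 region of all, chr17:68037358-68037432, was in the CDS 105 nt from the start of the coding sequence, with 76 reads in replicate 1 and 119 in replicate 2. The 20 nt at its summit also occur in the pseudogene KPNA2P3. Its 5′ UTR region, chr17:68035741-68035780, with 31 and 24 reads, belongs to an annotated start of the gene other than the transcript used for positions.

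CSE1L, the exportin of importin-α, was the most confined to the CDS. All of its 264 reads in replicate 1 and 168 of 179 in replicate 2 (93.9%) lay there, and its 3′ UTR of 514 nt had a single peak of 11 reads, in replicate 2. It had 11 CDS regions found in both, and the best covered, chr20:49063324-49063345, had 32 and 22 reads. It was the gene with the largest excess of replicate 1 over replicate 2.

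XPO1, the export receptor for leucine-rich nuclear export signals and for several RNA classes, had 351 and 378 reads. Its 5′ UTR took 73 reads (20.8%) in replicate 1 and 94 (24.9%) in replicate 2, the highest mean share of the 10 genes. Among protein-coding genes with at least 10 reads in each library, the median of the mean shares was 2.46%. The median in each library alone was 0. Other family members had comparable or higher 5′ UTR shares, with 49.2% in replicate 1 and 36.2% in replicate 2 for IPO13, 14.3% and 26.8% for XPO6, and 18.9% and 10.1% for XPOT, of which IPO13 and XPO6 were named after their values were seen. The 5′ UTR had 4 regions found in both, 529, 412, 347 and 27 nt before the start codon. They had 15, 17, 20 and 13 reads in replicate 1 and 35, 19, 18 and 14 in replicate 2, and together covered 22.4% of the 728 nt. Its 3′ UTR held 9.97% of the reads in replicate 1 and 10.1% in replicate 2, in 6 peaks per library. The 4 sites found in both lay between 448 and 746 nt after the stop codon and held 22 of the 35 reads in replicate 1 and 29 of the 38 in replicate 2, while a peak of 10 reads at 181 nt was listed in replicate 1 only. The best covered of the 4, with 6 and 11 reads, lies on a run of GU, chr2:61478182-61478211 on the minus strand, with the repeat in capitals.
XPO1: guucuuuuuguuuuUGUGUGUGUGUgcugu
The 20 nt at its summit in replicate 2 also occur in DCBLD2.

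Across the 10 genes, 33 regions of 3′ UTR were found in both libraries, and the 30 nt around their summits were searched for 10 motifs. The GU repeat UGUGUGU was in 2 windows (6.06%, KPNB1 and XPO1), against 2.48% of 10996 windows in protein-coding genes. The miR-101 match was in 1, the miR-17 family match in 1 and the AU-rich pentamer AUUUA in 1, in IPO7, against 0.991%, 0.937% and 4.47% of all windows. The Pumilio element UGUANAUA, its reversed control AUANAUGU, the miR-92 family match GUGCAAU, the AU-rich heptamer UAUUUAU, the poly(A) signal AAUAAA and CCUCCC were in none, with all-gene shares between 0.218% and 5.6%. The GU repeat and the AU-rich motifs can overlap themselves, and only the mRNA strand was searched. With 33 windows, single matches carry no weight as a difference.

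Some genes had a region close behind the stop codon. KPNB1 (101 nt), KPNA2 (97 nt), IPO5 (93 nt) and IPO7 (125 nt) each had a 3′ UTR region within 150 nt after the stop codon, 4 of the 8 genes with any such region, against 30.4% of 5192 protein-coding genes. In KPNB1, KPNA2 and IPO5 it was the best covered 3′ UTR region, whereas TNPO1 had its nearest at 372 nt. The 3′ UTR of KPNA2 has only 246 nt, and the parts of 3′ UTR length and coverage in this share were not tested. The distance of 150 nt was chosen after the values were seen.

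The acidic stretches of the CDS were likewise noticed after the values were seen. Several receptors of this family are known to have an acidic loop in a HEAT repeat, among them importin-β1 and transportin-1. The IPO8 window printed above has 9 acidic codons of 10 and was the best covered region of that gene. The IPO7 window, with its summit at the same distance from the start codon (2786 nt), has 7 and was the best covered region of IPO7, with 64 reads in replicate 1 and 67 in replicate 2. Nearby regions of IPO7 with summits at 2691 and 2703 nt have 7 and 6 acidic codons and had 32 and 34 reads in replicate 1 and 25 and 38 in replicate 2. Their windows overlap across an exon junction, so they may be a single site of the mRNA. The KPNB1 window has 7 (32 and 37 reads), the IPO5 window 6, and the IPO9 window 8 (5 reads in replicate 1 and 14 in replicate 2). The best covered CDS region had 1 acidic codon in KPNB1 and in TNPO3, 2 in KPNA2, 3 in XPO1 and 0 in CSE1L. In IPO9 the printed region tied in summed reads with a region at 672 nt from the start codon. That region had 8 reads in replicate 1 and 11 in replicate 2, and 2 acidic codons.

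In all, 12 of the 101 CDS regions found in both had 5 or more acidic codons in the 10 at the summit (11.9%), against 5.75% of 26497 regions in protein-coding genes. A site that spans an exon junction can count more than once in either share, as with the IPO7 regions at 2691 and 2703 nt. Among all possible 10-codon windows the shares were 3.04% in the 10 genes and 1.51% in protein-coding genes. The 12 regions belonged to IPO5, IPO7, IPO9, KPNB1, TNPO3 and IPO8, and there were none in TNPO1, KPNA2, XPO1 and CSE1L. The single most acidic 10-codon stretch of the coding sequence lay with its middle under peaks of both libraries in TNPO1, KPNB1, IPO5, IPO7 and IPO8, which is 5 of 10 genes, against 27.5% of 7305 protein-coding genes with a repeated CDS region. In IPO9 the most acidic stretch, codons 952 to 961, was under no peak. Higher read depth in these genes goes along with these shares, as 10.4% of their coding bases were under peaks of both libraries, and its part was not tested.

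**Figure D4:**
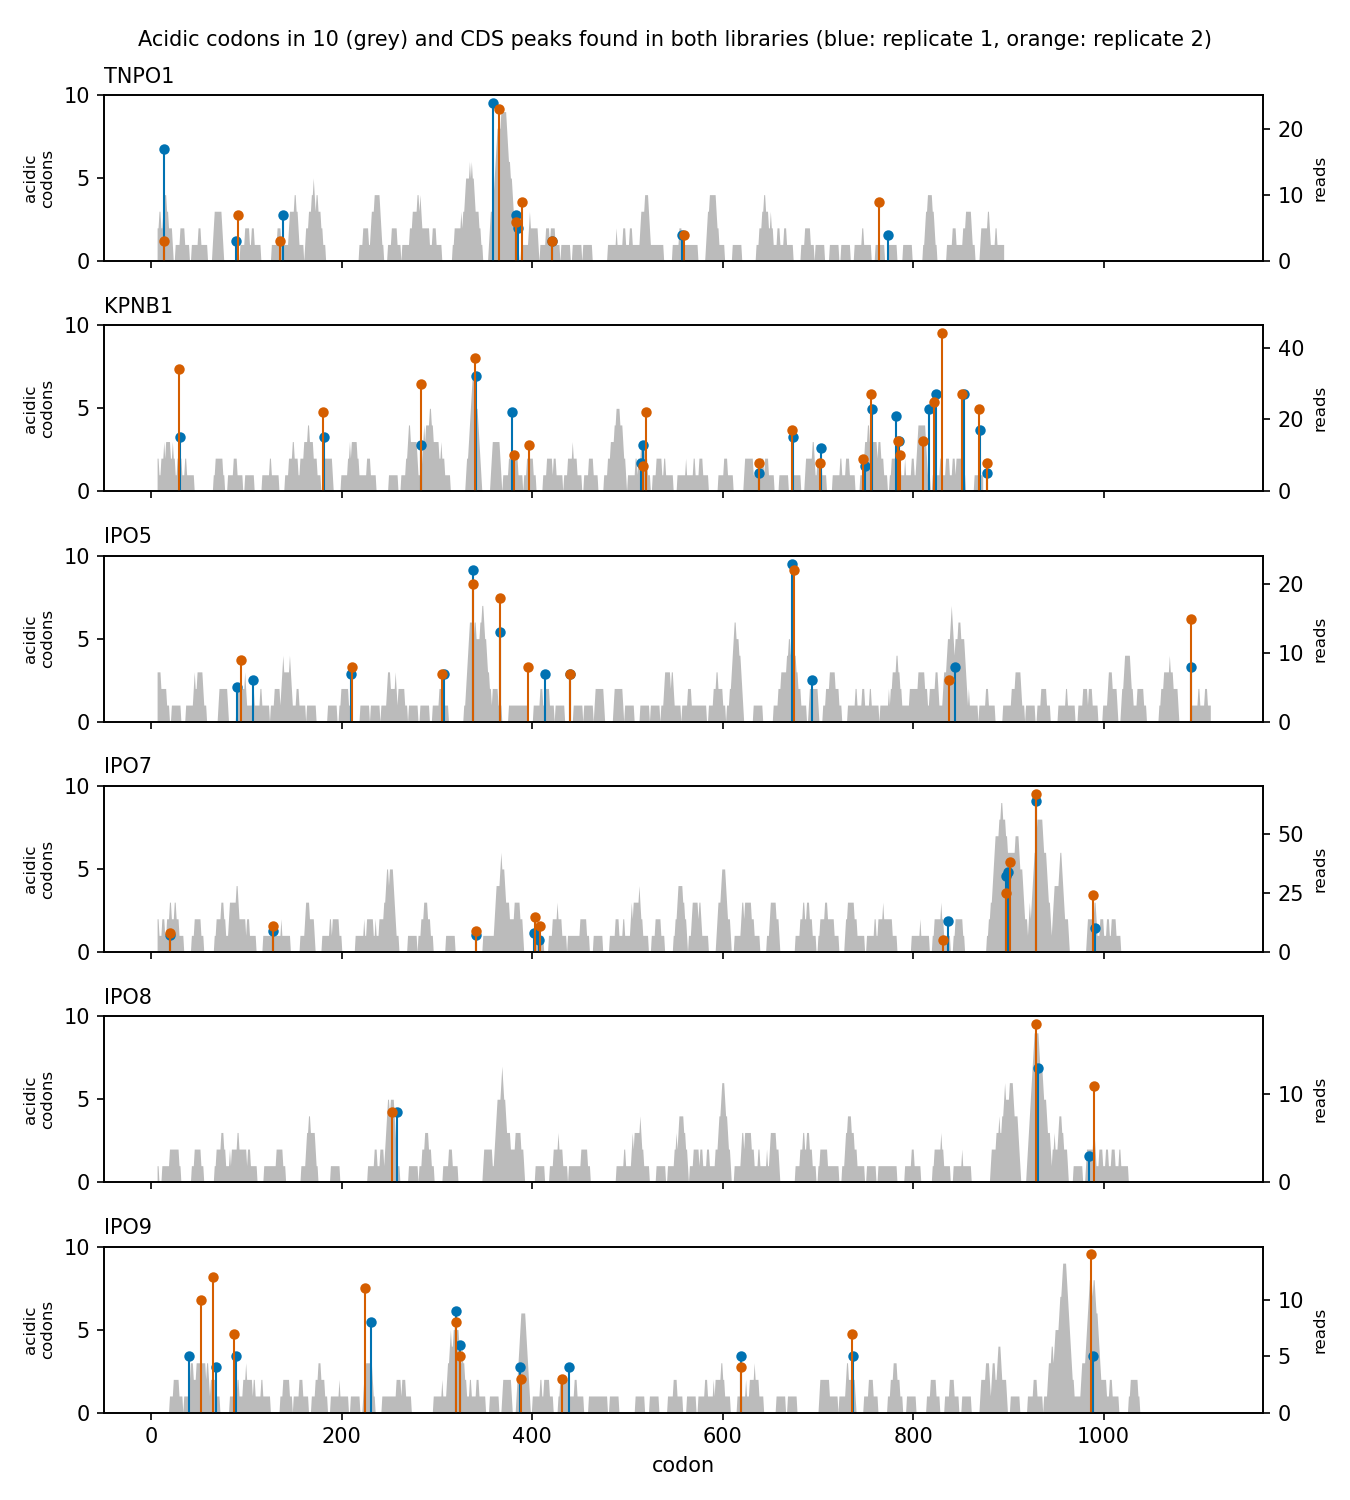
Number of acidic codons in each 10-codon window along the coding sequence (grey, left axis) and reads of the CDS peaks found in both libraries at their summits (right axis, blue for replicate 1 and orange for replicate 2) for 6 import receptors. The tallest peaks of TNPO1, IPO5, IPO7 and IPO8 stand on or beside an acidic stretch, as does a tall peak of KPNB1. The most acidic stretch of IPO9, codons 952 to 961, has none, whereas its tallest peak of replicate 2 stands on a window with 8 acidic codons.

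Other family members gave a point of reference. Of 16 further importin, exportin and importin-α genes, 14 held a peak, KPNA7 and XPO4 had none in the lists used here, and 10 had a 3′ UTR peak found in both libraries. Their mean levels ran between 1.85 reads per kb for RANBP17 and 33.1 for XPOT, the exportin of tRNA, and their median 3′ UTR share was 13.9%. The 3 with the most reads were TNPO2, transportin-2, with 239 in replicate 1 and 314 in replicate 2, XPOT with 196 and 228, and the importin-α KPNA4 with 138 and 151. In TNPO2, the closest relative of TNPO1, 74.9% and 77.1% of the reads were intronic, with 91 and 111 of them on the small nucleolar RNA gene SNORD41. TNPO1 had 12 repeated peaks in its 3′ UTR of 8060 nt, against 2 in the 3′ UTR of TNPO2, which has 2070 nt. In KPNA4, 74 and 79 reads lay on the small RNA gene SCARNA7. Repeated 3′ UTR peaks were most numerous in the importin-α KPNA6, with 4, and in KPNA4, with 3, followed by 2 each in KPNA1, KPNA3, KPNA5, TNPO2, XPO5, XPO7 and XPOT.

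Of 11 genes of the Ran cycle and of related carriers, all held peaks and 8 had a 3′ UTR peak found in both, with a median 3′ UTR share of 10.4%. The most reads were in RCC1, the exchange factor that loads Ran with GTP, with 883 in replicate 1 and 850 in replicate 2. Of these, 258 and 266 lay on SNORA73A and 318 and 217 on SNORA73B, small nucleolar RNA genes in its introns. RANBP1, which helps to release Ran-GTP from receptors, had 537 and 561 reads, and RAN itself 449 and 545. Repeated 3′ UTR peaks were most numerous in RANGAP1, which activates the GTPase of Ran, with 6, and in RAN and NUTF2, the import carrier of Ran-GDP, with 3 each. NUTF2 had 85.6% and 86.2% of its reads in the 3′ UTR.

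Several of these genes have pseudogene copies, most of them annotated as processed, whereas KPNA2P3 is annotated as unprocessed. Of 11 annotated entries named after the 10 genes, 10 were pseudogenes. All of these held a peak, which limits what can be assigned to the parent gene. The remaining entry, a second IPO5P1, is typed as a processed transcript and held no peak. KPNA2P3 had 108 reads in replicate 1 and 136 in replicate 2, KPNA2P1 had 68 and 101, KPNA2P2 had 14 and 21, and IPO8P1 had 47 and 64. IPO7P1 had 32 and 22 reads and IPO7P2 had 28 and 53. TNPO1P2 and TNPO1P3, both on chromosome 17, had the same totals, 21 and 18, whereas TNPO1P1 and IPO5P1 had 3 each, in replicate 2 only. Peaks whose 20 nt at the summit also occur in a transcript of another gene held 61.7% of the KPNA2 reads in replicate 1 and 67.7% in replicate 2, 41.2% and 47.7% of the IPO7 reads and 9.26% and 16.9% of the KPNB1 reads. In IPO7 they include the best covered CDS region on the acidic stretch, whose summit is also found in IPO8P1, while the 3′ UTR site at 791 nt and that of KPNA2 at 97 nt are not among them. For TNPO3, IPO5, IPO9 and CSE1L there were none. In IPO8 the only such peak had 3 reads in replicate 1 and shared its summit with DCLK1, and no IPO8 summit was found in IPO8P1.

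The genes most like TNPO1 in how their reads fell over transcript regions were sought among 2160 protein-coding genes with at least 100 peak reads in each library, by the summed absolute difference of 10 percentages, 5 regions in 2 libraries. The nearest were RAD51AP1 (12.7 percentage points in sum), NPTN (13.0), LBR (15.2), UNG (15.7) and NDFIP2 (18.1). LBR, which encodes the lamin B receptor of the inner nuclear membrane, had 45.9% and 51.7% of its reads in the 3′ UTR and 7 regions there found in both. TNPO1 had 12 such regions, and the other 4 genes had 2 to 4.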

How the data were processed

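The data were 2 deposited peak lists, 1 per library (replicate 1 and replicate 2 of the group TRACER), on GRCh38. Each peak has a p-value that the authors deposited with it, and the number of reads in it. The submitters' processing notes name cutadapt 4.2, UMI-tools 1.1.4 and STAR 2.7.11 without their roles. The file names carry the word clipper, a peak caller, and a limit on reads that match several places, which is not explained further. For the caller, a version and an annotation were not given in the sources used here. No counts of reads outside peaks were used, so depth and normalization between libraries are unknown.

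Peaks were matched to GENCODE 29 by gene identifier, and 19811 of 20048 identifiers matched. A peak took its region from its summit, in the order 3′ UTR, CDS, 5′ UTR, non-coding exon and intron over all protein-coding transcripts. Positions, lengths and sequences came from 1 representative transcript per gene, the longest among those with at least 90% of the longest coding sequence. Regions found in both libraries are overlapping peaks merged over them by genome position, so a site that spans an exon junction can count more than once. An element counted as under a peak where all its bases were covered. All 13039 protein-coding genes with a peak and a coding transcript served as background. Background medians of reads, reads per kb and region shares used only the 8765 of these with at least 10 reads in each library. Intervals are exact binomial and cover counting error only. Named genes, by rule, were the 10 genes and, of the related genes and of the Ran cycle genes, the 3 with the most reads and the 3 with most repeated 3′ UTR peaks, with ties. Also named were the pseudogenes with a peak, the 5 genes most like TNPO1, and each gene's best covered region. The members and lists were chosen with earlier results of these data known. No test was made, since there is a single group. The counting functions were tested on simulated data. Python 3.11.15, numpy 2.4.6, scipy 1.17.1 and matplotlib 3.10.9 were used.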

Additional observations from a re-analysis of the deposited data

How the results depend on the processing

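Of 27 alternatives to the 5 summary values, 19 stayed within the replicate spread or within 1.5 times the value, 8 moved and 0 reversed. With peaks at or under a p-value of 1e-05, 5 genes in place of 8 had a 3′ UTR peak found in both libraries, TNPO1 had 1 such peak in place of 12, and 79 peaks in place of 151 were found in both. With at least 10 reads per peak these values were 5, 1 and 67, and the median 3′ UTR share was 9.62% in place of 15.9%. With an overlap of 50% of both peaks TNPO1 had 7. Fewer peaks or stricter overlap are built into these settings. Without either replicate the median share was 13.4% to 19.3%. Leaving out peaks whose summit sequence occurs in another gene, an alternative chosen after seeing the data, gave 8 genes, 12 TNPO1 peaks, 125 peaks and 20.1%. It moved the mean 3′ UTR share to 42.6% in place of 17.1% for KPNA2, to 64.5% in place of 40.4% for IPO7 and to 71.8% in place of 50.5% for TNPO1. At p-values at or under 1e-05 the TNPO1 share was 41.7%, beside 41.9% for IPO7 and 50% for TNPO3, the last from very few reads. TNPO1 was then not the highest. For single genes, 11 of 54 peak counts and 17 of 70 percentages moved, and 0 reversed. The reads per peak, with a median of 6, limit single sites of TNPO1, TNPO3, IPO8 and IPO9 most. No paired analysis was possible because there is a single group.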
